A study of Mus musculus with 2 samples.

Results

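Actin and the proteins that bind it were followed in mouse peritoneal macrophages, as a set of 54 genes for actins, tropomyosins, calponins, myosin II chains, filament cross-linkers, focal adhesion proteins, formins, actin-regulating kinases and serum response factor (SRF). The set was defined by gene names, as actin-binding, contractile and SRF target genes, with earlier results of these arrays already known. Every probe set annotated with exactly 1 of these symbols was taken. This gave 146 of the 45101 probe sets on the array, for 53 of the 54 genes. Rock2 was the gene with no such probe set, and Mkl1 was found under its present symbol Mrtfa. Of 2 cultures, the first had received LPS+CPN+GGOH and the second LPS+CPN. Both were macrophages of C57BL/6J mice collected 3 days after a thioglycolate injection, an irritant that draws monocytes into the peritoneal cavity where they become macrophages. LPS is lipopolysaccharide, a bacterial activator of macrophages, GGOH is geranylgeraniol, an isoprenoid alcohol that cells can turn into the lipid anchor of small GTPases, and CPN is an agent that the labels name only by these letters. Both groups therefore share LPS and CPN and differ in GGOH, with no culture that lacked LPS or CPN. Nothing on dose, duration, the animals' age or pooling of cells over animals was given in the sources used here.

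Actin filaments grow from a pool of monomers, and myosin II pulls on them. In smooth muscle cells and myofibroblasts the filaments form stress fibres decorated with tropomyosin, calponin, transgelin and caldesmon, whereas macrophages rely on podosomes and on a branched cortical network rich in plastin and coronin. Formins and the ROCK and LIM kinases favour filament assembly. This uses up actin monomers and so frees the coactivator MRTF-A to enter the nucleus, where it switches on genes with SRF through a DNA element named the CArG box.

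Each condition was measured on 1 array, so no value below has a replicate, a standard error or a test, and each describes these arrays. The deposited signals are linear intensities in arbitrary units. Signals at or under 59.9, the median of all signals that were not from control probe sets, were treated as not measured, and a gene at this floor on 1 array is known only by a bound, marked "at least". A gene was represented by the probe set whose mean log2 signal over the arrays was highest, leaving out control probe sets and the _x_at class, which can bind other transcripts. Log2 ratios are LPS+CPN+GGOH over LPS+CPN. Probe sets of the same gene differed with a pooled SD of 0.45 in log2 ratio over 4166 genes, which is the error scale available within the arrays and holds no variation between cultures. Of 11518 measured genes, 5.50% were at least 2-fold higher with GGOH and 1.66% at least 2-fold lower, with a median log2 ratio of -0.015. In whole cultures, a change in the number of cells of a type and a change in RNA per cell cannot be told apart.

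With GGOH, the genes of the set that were far higher were the bundling protein fascin (Fscn1) and the contractile genes caldesmon (Cald1), transgelin (Tagln), Tpm2 and smooth muscle actin (Acta2), while the cytoplasmic actin genes Actb and Actg1 differed little. Of the 49 measured genes, 12 (24.5%) were at least 2-fold higher, against 5.50% of all measured genes, and 1 was at least 2-fold lower, against 1.66% of all. The median log2 ratio of the 49 was 0.34. Among them, 4 of the higher genes (Tagln, Flnc, Enah and Diaph3) were above the floor only with GGOH and could not have been measured without being higher. Among the 45 genes above the floor on both arrays, 8 were at least 2-fold higher (17.8%), against 3.31% of all genes measured on both, and 1 was at least 2-fold lower, against 1.52%. The genes not measured on either array were Actg2, Cnn1, Myl9 and Mylk, all of the smooth muscle type. Myl9, a regulatory light chain of smooth muscle myosin, lay just under the floor with GGOH, at a signal of 56.8, against 6.14 with LPS+CPN. The Mylk probe sets read 2.66, 24.2 and 37.7 with GGOH and 49.7, 40.3 and 24.9 with LPS+CPN. Actg2 read 26.8 with GGOH and 4.24 with LPS+CPN, and Cnn1 3.00 with GGOH and 7.50 with LPS+CPN. Signals under the floor give no direction here. The 10 fibroblast markers described further on had a summed signal of 28965 with GGOH and 1321 with LPS+CPN, and their part in these ratios was not tested.

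**Figure D1:**
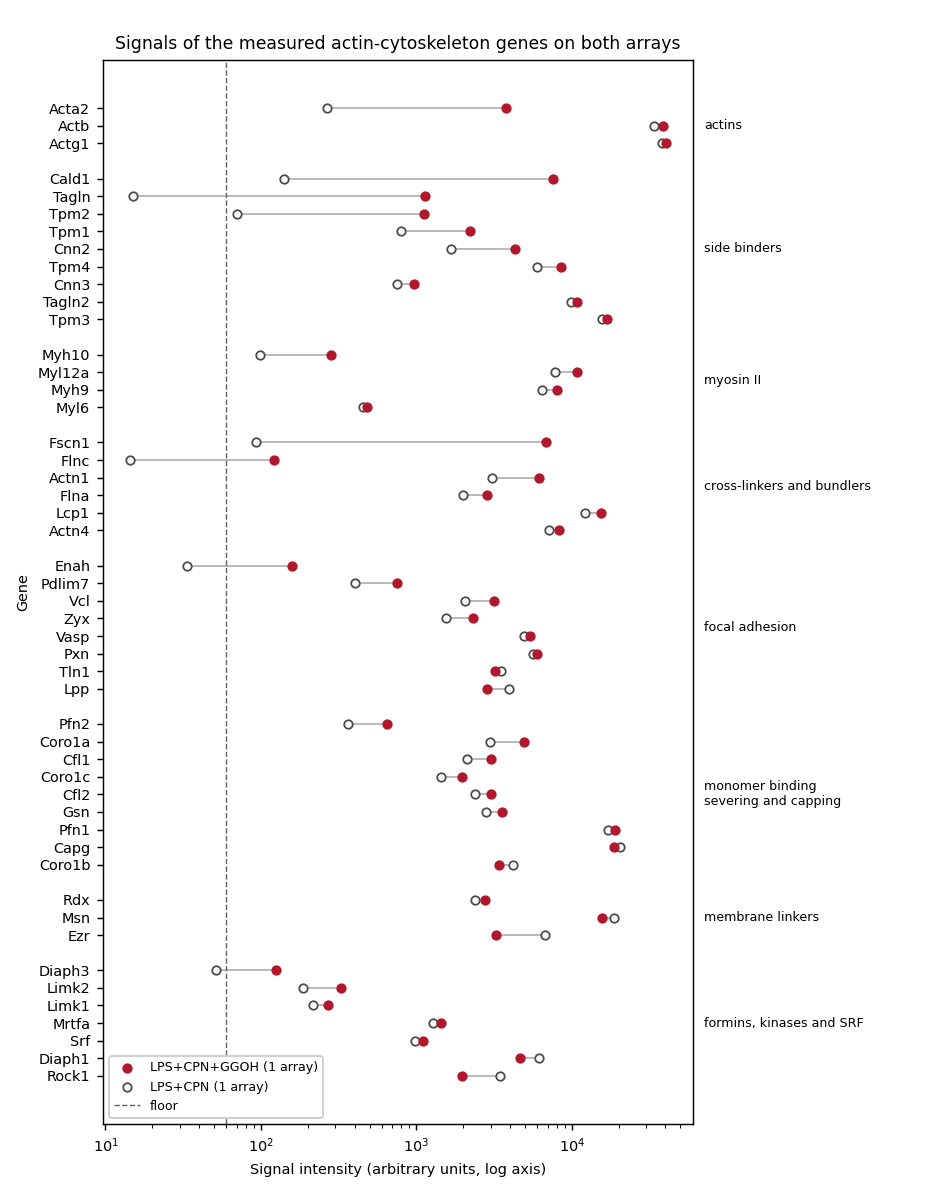
Signal intensity (log axis, arbitrary units) of the 49 measured genes, grouped by role, with filled points for the LPS+CPN+GGOH array, open points for the LPS+CPN array and a dashed line at the floor of 59.9. Fscn1, Cald1, Tagln, Tpm2 and Acta2 have long lines between their points, while those of Actb and Actg1 are short; signals are drawn as deposited, also under the floor.

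Actins form the filament itself. Acta2, the smooth muscle alpha actin that marks myofibroblasts, had a signal of 3784 with GGOH, against 266 with LPS+CPN, a 14.2-fold difference (log2 ratio 3.83). This value came from the only 1 of its 3 probe sets above the floor, of the _s_at class, whose probes can be shared by related transcripts. Cytoplasmic beta actin (Actb) had signals of 38849 with GGOH and 33667 with LPS+CPN (log2 ratio 0.21). Another Actb probe set went the other way, with 29953 with GGOH and 38708 with LPS+CPN (-0.37). Cytoplasmic gamma actin (Actg1) had 40279 with GGOH and 37903 with LPS+CPN (0.088). The ratios of both cytoplasmic actin genes lie inside the spread between probe sets, while that of Acta2 lies far outside it. Coding sequences of actins are nearly identical, and how far each probe set separates them was not tested.

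SRF binds the CArG box, so the 250 bases before each RefSeq transcript start were searched for it on assembly GRCm38.p6; the element reads alike on both strands. Windows were available for 47 of the 54 genes, 61 windows in all; Actb, Actg2, Tagln, Pxn, Coro1b, Diaph1 and Rock1 had none in the table. An exact CArG box stood in 6 of these 61 windows (9.84%), against 1.47% of all 32851 windows. The 6 were those of Actg1, Cnn2, Myl6, Myl9, Srf and Vcl. Because the set was chosen in part as SRF target genes, a higher share was partly built into it. A 10-base stretch with 1 mismatch to the CArG box was more frequent, in 26.2% of the windows of the set and 17.5% of all windows. The Acta2 window held 2 such stretches and no exact match, and those of Cald1, Flnc and Tpm1 also held inexact matches only. Of the genes with an exact match, Cnn2 was the only measured 1 past 2-fold (log2 ratio 1.38), and Vcl (0.63), Srf (0.17), Myl6 (0.096) and Actg1 (0.088) were not. The stretches below, credited to RefSeq on GRCm38.p6, show the smooth muscle actin promoter beside a cytoplasmic actin promoter, the only gene with an exact match past 2-fold, vinculin and Srf itself. They are printed 5′ to 3′ on the strand of the gene with the matches in capitals, which are inexact for Acta2 and exact for the others. The stretches are chr19:34255374-34255473 (minus strand) for Acta2, chr11:120348496-120348595 (minus) for Actg1, chr10:79988500-79988599 (plus) for Cnn2, chr14:20929161-20929260 (plus) for Vcl and chr17:46556163-46556262 (minus) for Srf. All end at the base before the transcript start except that of Vcl, which covers bases 237 to 138 before it.
Acta2: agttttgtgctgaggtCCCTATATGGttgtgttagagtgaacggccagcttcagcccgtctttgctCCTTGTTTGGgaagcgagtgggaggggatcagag
Actg1: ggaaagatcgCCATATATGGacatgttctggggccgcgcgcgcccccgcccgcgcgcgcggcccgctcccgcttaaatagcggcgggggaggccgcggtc
Cnn2: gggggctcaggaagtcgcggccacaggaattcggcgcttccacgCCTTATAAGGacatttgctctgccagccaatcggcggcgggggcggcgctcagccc
Vcl: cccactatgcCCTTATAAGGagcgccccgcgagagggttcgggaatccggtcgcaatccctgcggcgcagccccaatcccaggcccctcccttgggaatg
Srf: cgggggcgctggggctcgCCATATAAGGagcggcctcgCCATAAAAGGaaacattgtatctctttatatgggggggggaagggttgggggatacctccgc
In Acta2 the capitals begin 84 and 34 bases before the start, in Actg1 90, in Cnn2 56, in Vcl 227, and in Srf 82 and 62. A match describes these letters and does not show that SRF is bound there. Equally, the lack of an exact match, as in Acta2, does not show that SRF is not bound.

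Proteins that lie along the filament held the most genes past 2-fold, with 5 of 9 measured, all higher, against 5.50% of all measured genes. Caldesmon (Cald1), which links actin, myosin and tropomyosin, had a signal of 7555 with GGOH, against 140 with LPS+CPN, and was 54.0-fold higher. All 4 of its measured probe sets were higher, with log2 ratios from 1.18 to 5.75, the lower 3 of them bounds. Transgelin (Tagln), a calponin-family protein of smooth muscle, had a signal of 1131 with GGOH and lay at the floor with LPS+CPN, so it was at least 18.9-fold higher. The contractile tropomyosin gene Tpm2 had signals of 1123 with GGOH and 70.5 with LPS+CPN, a 15.9-fold difference that starts just above the floor. Its probe sets disagreed in size, with log2 ratios from 0.059 to 3.99. Tpm1, whose products serve both muscle and stress fibres, had signals of 2209.9 with GGOH and 801 with LPS+CPN (log2 ratio 1.46, and 1.46 to 1.78 over 3 probe sets). Cnn2, a calponin made in many cell types including macrophages, had 4328 with GGOH and 1659 with LPS+CPN (1.38, from 1 probe set). The remaining members were closer together on the 2 arrays. Tpm4, a non-muscle tropomyosin abundant in macrophages, had a log2 ratio of 0.52, Cnn3 one of 0.36, Tagln2, the transgelin of leukocytes and many other cells, one of 0.12, and Tpm3 one of 0.11. For Tpm3 this value was the lowest over 4 probe sets, which reached 0.99.

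Myosin II consists of heavy chains with essential and regulatory light chains. Non-muscle heavy chain Myh10 had signals of 283 with GGOH and 98.0 with LPS+CPN (log2 ratio 1.53). Myh9, the non-muscle heavy chain of blood cells, had 8073 with GGOH and 6416 with LPS+CPN (0.33), with 5 probe sets between 0.0022 and 1.08. The regulatory light chain Myl12a had a log2 ratio of 0.47 and the essential light chain Myl6 one of 0.096. The Myl6 value came from signals of 482 with GGOH and 451 with LPS+CPN. Brighter probe sets annotated to Myl6 together with other genes, and so not taken, gave -0.12 and -0.29. Only Myh10 was past 2-fold, and the smooth muscle light chain Myl9 and its kinase Mylk were not measured.

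Among cross-linkers and bundlers, Fscn1 had the highest ratio of the set's genes above the floor on both arrays. Fascin, which packs filaments into the tight bundles of filopodia and is also made by mature dendritic cells, had a signal of 6797 with GGOH, against 92.6 with LPS+CPN, a 73.4-fold difference. Its second measured probe set read 785 with GGOH and 387 with LPS+CPN, a log2 ratio of 1.02, and another pair of probe sets was under the floor on both arrays. The direction was thus shared and the size was not. Actn1, the alpha-actinin of stress fibres and focal adhesions, had 6164 with GGOH and 3074 with LPS+CPN, a 2.01-fold difference at the edge of the threshold, and its 3 probe sets agreed closely (log2 ratios 1.004 to 1.18). Flnc, the muscle filamin, was at least 2.01-fold higher, from a signal of 121 with GGOH. Flna, the filamin of most cells, had a log2 ratio of 0.52, Lcp1, the plastin of leukocytes, one of 0.34 (0.34 and 0.91 over 2 probe sets), and Actn4 one of 0.22. Of 6 genes, 3 were past 2-fold, all higher, against 5.50% of all measured genes.

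Focal adhesion proteins join integrins to actin, and 1 of 8 was past 2-fold. Of all measured genes, 5.50% were at least 2-fold higher and 1.66% lower. Enah (Mena), which speeds filament growth at barbed ends and is scarce in blood cells, was above the floor only with GGOH. The probe set chosen by mean signal read 158 and gave a bound of at least 2.63-fold, while a probe set of the same gene read 670 with GGOH and 5.60, under the floor, with LPS+CPN. Its log2 ratios, all bounds, ran from 1.01 to 3.48 over 3 probe sets. Vasp, the related protein of platelets and leukocytes, had signals of 5348 with GGOH and 4914 with LPS+CPN (0.12). Pdlim7, a LIM protein of stress fibres, had a log2 ratio of 0.90, the integrin-linked anchor vinculin (Vcl) 0.63 and zyxin (Zyx), a tension sensor of adhesions, 0.57. Paxillin (Pxn) at 0.072, talin (Tln1) at -0.13 and Lpp at -0.48 completed the group. The Pxn value was the lowest over 3 probe sets, which reached 1.05, and those of Tln1 ran from -0.35 to 0.61. Lpp, a zyxin relative, had 7 measured probe sets on both sides of 0, from -0.48 to 1.21. Most of the adhesion scaffold was therefore within 2-fold, as were most of all measured genes.

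None of 9 proteins that bind monomers or sever, cap or remodel filaments was past 2-fold. For so few genes this is near the 5.50% of all measured genes that were higher and the 1.66% that were lower. Profilin Pfn1, which feeds monomers to growing ends, had signals of 18962 with GGOH and 17215 with LPS+CPN (log2 ratio 0.14), and Pfn2, its relative of neurons and other tissues, 648 with GGOH and 363 with LPS+CPN (0.83). Coro1a, the coronin of leukocytes, had 4921 with GGOH and 2972 with LPS+CPN (0.73). The severing protein cofilin (Cfl1) had a log2 ratio of 0.51, Coro1c 0.45, the muscle cofilin Cfl2 0.33 and gelsolin (Gsn) 0.33. Capg, a capping protein abundant in macrophages, had -0.12 and Coro1b -0.30. Over these 9 genes 7 gene values were above 0, and their range ended at 0.83.

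The membrane linkers tie cortical actin to the plasma membrane, and their gene ezrin (Ezr) was the only 1 of the set at least 2-fold lower. Ezrin had signals of 3262 with GGOH and 6708 with LPS+CPN, a 2.06-fold difference (log2 ratio -1.04) that was within 2-fold after a lowess of the ratio on signal (-0.96) and with macrophage markers set equal (-0.84). Moesin (Msn), the dominant linker of leukocytes, had 15682 with GGOH and 18730.5 with LPS+CPN (-0.26), while its dimmer probe set gave 1.01. Radixin (Rdx) had a log2 ratio of 0.22, with probe sets from -0.18 to 1.04. For both genes the dimmest probe set gave the highest ratio.

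Among the formins, kinases and transcription factors that link filament assembly to SRF, the kinases, Srf and Mrtfa were within 2-fold. Srf had signals of 1098 with GGOH and 976 with LPS+CPN (log2 ratio 0.17), and Mrtfa, its actin-sensing coactivator, 1434 with GGOH and 1272 with LPS+CPN (0.17). Diaph3, a formin, was at least 2.08-fold higher, with a signal of 124 with GGOH and of 51.2, under the floor, with LPS+CPN. Diaph1, another formin, had a log2 ratio of -0.41. Rock1, the kinase that activates myosin, had -0.82, yet its 5 probe sets ranged up to 0.62 and their median was -0.010. The LIM kinases, which inactivate cofilin, had 0.81 (Limk2) and 0.33 (Limk1). Of 7 measured genes, Diaph3 alone was past 2-fold, against 5.50% of all measured genes at least 2-fold higher and 1.66% lower.

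Muscle-type and leukocyte-type isoforms were then compared. The muscle-type list held Acta2, Actg2, Tagln, Cnn1, Cald1, Tpm1, Tpm2, Myl9, Mylk, Flnc and Cfl2, of which 7 of 11 were measured and 6 were at least 2-fold higher, with a median log2 ratio of 3.83. All measured ones but Cfl2 were past 2-fold, against 5.50% of all genes higher, but Tagln and Flnc were measured only with GGOH. Of the 5 measured on both arrays, 4 were at least 2-fold higher, against 3.31% of all such genes, with a median of 3.83. The leukocyte-type and general list held Actb, Actg1, Tagln2, Cnn2, Tpm3, Tpm4, Myl6, Myl12a, Myh9, Flna, Pfn1, Cfl1, Lcp1, Coro1a and Capg, of which all 15 were measured on both arrays. In it 1 gene was at least 2-fold higher (Cnn2) and none lower, near the 3.31% and 1.52% of all genes measured on both arrays. The list had a median of 0.33 and a range from -0.12 to 1.38. Counted by probe set, 18 muscle-type probe sets were measured, of which 7 were above the floor only with GGOH and so could not have had a ratio below 0, and 35 leukocyte-type probe sets, of which 1 was. Among probe sets above the floor on both arrays, 8 of 11 muscle-type ones were at least 2-fold higher, against 3 of 34 leukocyte-type ones and 4.21% of all such probe sets with 1 gene. In neither list was a probe set at least 2-fold lower, against 1.47% of all. On both arrays, all 11 muscle-type probe sets and 28 of the 34 others had a ratio above 0. The share of all probe sets above 0 is not given here, and the median of all measured genes was -0.015. Counts by probe set include the _x_at and control classes, and several probe sets come from the same gene. Without those classes, 7 of 10 muscle-type and 2 of 26 leukocyte-type ones on both arrays were at least 2-fold higher. All of those 10 and 24 of those 26 had a ratio above 0.

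**Figure D2:**
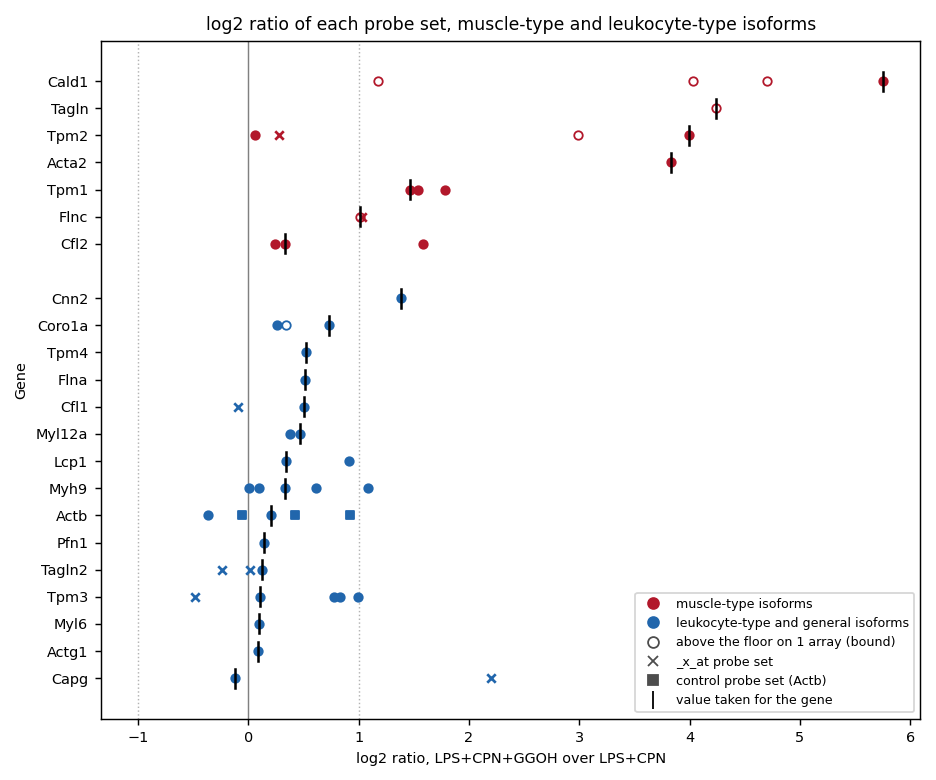
Log2 ratio (LPS+CPN+GGOH over LPS+CPN, x axis) of every measured probe set of the muscle-type genes (upper block) and of the leukocyte-type and general genes (lower block), with open points for bounds, crosses for _x_at probe sets, squares for the Actb control probe sets, a black bar for the value taken for the gene and dotted lines at 2-fold. Gene values of Cald1, Tagln, Tpm2 and Acta2 lie above 3, while those of 14 of the 15 leukocyte-type and general genes lie between -0.12 and 0.73.

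Most muscle-type genes, and Cnn3, Myh10, Pfn2 and Fscn1 from neither list, were also set beside a leukocyte-type or general partner. There were 12 pairs of the same protein family and the pair of bundlers Fscn1 and Lcp1, which belong to different families. Of the 12 family pairs 9 could be compared. The first gene had a higher log2 ratio than its partner in 7 of them, and exceeded it by at least 1 in 5. Tagln and Flnc are counted in the 7, and Tagln in the 5. Both were above the floor only with GGOH, so their ratios could not have been below 0. The gap was at least 4.12 for Tagln over Tagln2, 3.62 for Acta2 over Actb and 3.47 for Tpm2 over Tpm4. It was 1.36 for Tpm1 over Tpm3 and 1.20 for Myh10 over Myh9. Between the bundlers it was 5.85, for Fscn1 over Lcp1. The spread between probe sets of a gene gives an SD of 0.63 for a difference between 2 log2 ratios, a technical figure from the same arrays that says nothing of the spread between cultures. Pfn2 exceeded Pfn1 by 0.70 and Flnc exceeded Flna by at least 0.49, both near that technical spread. The order was turned for Cfl2, 0.17 under Cfl1, a gap inside that spread, and for Cnn3, 1.03 under Cnn2. With _x_at probe sets kept, Cfl1 had a log2 ratio of -0.095, below the 0.33 of Cfl2. Among the pairs compared, Cnn3 was thus the only first gene behind its partner by more than that spread.

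**Figure D3:**
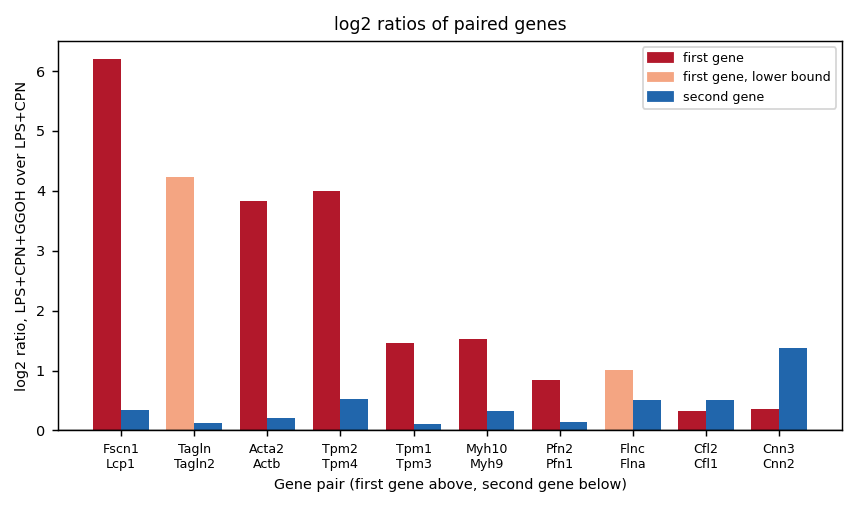
Log2 ratio (LPS+CPN+GGOH over LPS+CPN) of each gene in the 9 comparable isoform pairs and in the pair Fscn1 and Lcp1. The first gene of each pair is in red (pale where it is a lower bound) and its leukocyte-type or general partner in blue. The red bar is the taller in the first 8 pairs and the blue bar in the last 2, Cfl2 with Cfl1 and Cnn3 with Cnn2.

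Other genes of the same machinery were described as lists. Of 23 further stress fibre and smooth muscle genes, 19 were measured, with a median log2 ratio of 0.50. At least 2-fold higher were 7, against 5.50% of all measured genes, and none was at least 2-fold lower, against 1.66%. Of the 19, 12 were above the floor on both arrays. The rest were above it only with GGOH and could not have come out lower, and those marked "at least" below are among these. Desmin (Des), the muscle intermediate filament, was at least 15.9-fold higher, kindlin Fermt2, an integrin activator, at least 6.10-fold and parvin Parva at least 3.18-fold, and the LIM protein Csrp1 was 2.52-fold higher. Smtn, Synpo and Palld were the others, at 2.03-fold to 2.17-fold. None of 14 measured leukocyte actin regulators was past 2-fold (median 0.038), which for so few genes is near the shares of all genes. Aif1 at 0.64 and Nckap1l at -0.48 were the extremes of the list, with Dock8 at 0.46 and Hcls1 at -0.42. The median of this list changed sign in 3 of the 10 other settings. In the Arp2/3 and WASP family, which builds branched networks, 2 of 12 were at least 2-fold higher, against 5.50% of all measured genes. These were cortactin (Cttn, 6.79-fold) and Wasf1 (at least 3.88-fold, above the floor only with GGOH), relatives of Hcls1 and Wasf2. Wasf2 had a log2 ratio of -0.32 and Wipf1 one of 0.65, and the list's median of -0.072 turned positive in 4 of the other settings.

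Markers of other cell types differed between the same arrays. Of 10 fibroblast markers, 8 were above the floor with GGOH and 3 with LPS+CPN. Of the 8 measured, 7 were at least 2-fold higher (median 3.65), against 5.50% of all measured genes. Markers above the floor only with GGOH, here and among the mesothelial markers, could not have come out lower. Those above the floor on both arrays were all at least 2-fold higher, against 3.31% of all such genes. The summed signal of the 10 fibroblast markers was 28965 with GGOH and 1321 with LPS+CPN. The collagen chain Col1a2 (38.9-fold) and the matrix protein Sparc (28.5-fold) led among those measured on both arrays. Of the collagen genes below the floor with LPS+CPN, Col3a1 was at least 25.9-fold and Col1a1 at least 17.6-fold higher, while Lum and Postn were not measured on either array. Of 8 mesothelial markers, 7 were above the floor with GGOH and 1 (Krt8) with LPS+CPN. Of the 7 measured, 6 were at least 2-fold higher, against 5.50% of all measured genes. The median over the 7, 1.62, was itself a bound (Msln). The summed signal of the 8 was 2304 with GGOH and 253 with LPS+CPN. Wt1 was at least 9.02-fold, Krt8 7.70-fold, Krt18 at least 5.14-fold and Msln at least 3.07-fold higher. Most markers that define mature smooth muscle were not measured, since Myh11, Lmod1 and Myocd lay under the floor on both arrays, as did Cnn1, and of that list only Des and Smtn were measured. The part of fibroblasts or mesothelial cells in the higher contractile genes was not tested.

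All 12 macrophage markers were above the floor on both arrays, as the label of the cells says, with a summed signal of 187589 with GGOH and 210608 with LPS+CPN. Their median log2 ratio was -0.20, and only Itgam was past 2-fold (1.05), with Mertk (-0.73), Csf1r (-0.50) and Msr1 (-0.47) at the lower end. Few markers of further cell types were above the floor. Of the endothelial markers only Kdr was measured (-0.027), no B or T cell marker was, and of 5 neutrophil markers S100a8 (-0.95) and Ngp (at least 1.26-fold lower) were. Among platelet markers Pf4 had a log2 ratio of -0.30 and Itga2b -0.18, and Gp9 was at least 2.23-fold lower.

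**Figure D4:**
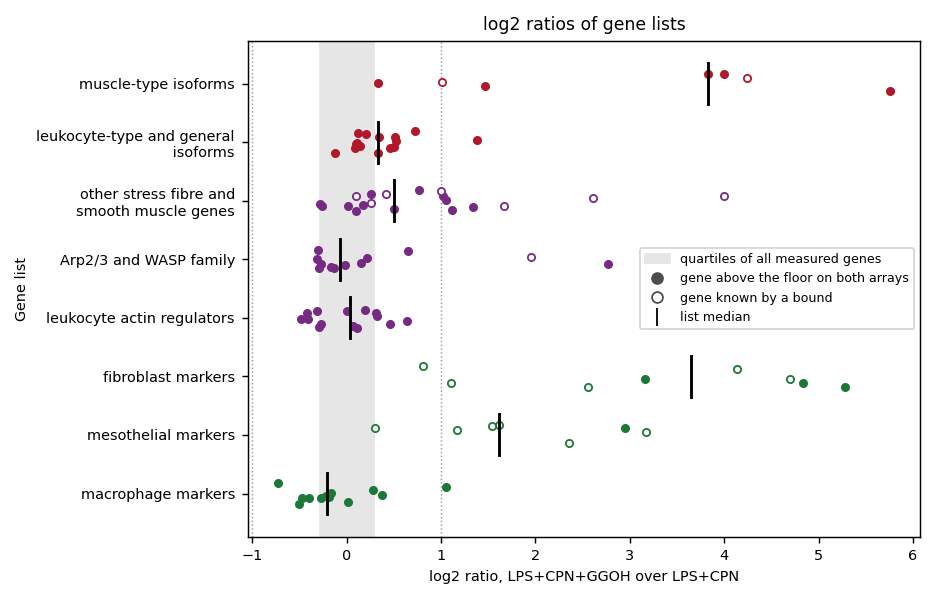
Log2 ratio (LPS+CPN+GGOH over LPS+CPN, x axis) of every measured gene in 8 lists, with open points for bounds, a black bar at each list's median, a grey band over the quartiles of all measured genes (-0.28 to 0.29) and dotted lines at 2-fold. The medians of the muscle-type isoforms (3.83), fibroblast markers (3.65) and mesothelial markers (1.62) lie to the right of the band. Those of the leukocyte actin regulators (0.038) and macrophage markers (-0.20) lie within it. Single genes of these lists also lie outside the band, with ranges from -0.48 to 0.64 and from -0.73 to 1.05.

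Actb also allows a look along its transcript, because the array carries control probe sets for its 5′ end, middle and 3′ end. The log2 ratio was 0.92 at the 5′ end (29426 with GGOH and 15562 with LPS+CPN), 0.42 in the middle and -0.055 at the 3′ end. The 3′ signal was 1.24 times the 5′ signal with GGOH and 2.44 times with LPS+CPN. For Gapdh, a glycolytic gene with the same kind of controls, these figures were 0.956 with GGOH and 1.98 with LPS+CPN. The LPS+CPN array thus had less 5′ signal relative to 3′ signal for both transcripts. Probe set positions within the other genes were not used here, and the part of this difference in their ratios was not tested. The 5′ log2 ratio exceeded the 3′ log2 ratio by 0.97 for Actb and by 1.05 for Gapdh, gaps about as large as the 2-fold threshold and as the log2 ratios of Actn1 (1.004), Flnc (at least 1.01) and Diaph3 (at least 1.05).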

How the data were processed

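Deposited values were signal intensity values on a linear scale, 1 per probe set and array, made by the authors with MAS5 per the submitters' processing notes; its version and target were not given in the sources used here. On each array the mean of the central 96% of signals was 500.0, and the median signal was 63.7 with LPS+CPN+GGOH and 56.7 with LPS+CPN. Detection calls were not used here, and having 1 array per condition limits the precision.

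Names came from the platform annotation. Gene values, the floor and log2 ratios were computed as described in the report with Python 3.11.15, pandas 2.3.3 and statsmodels 0.14.6, and a call was a 2-fold difference, bounds included. Gene values and calls were computed over all genes. The calls were tested on simulated arrays, with changes only in genes well above the floor and less noise than the spread between probe sets here. Bounds, promoter searches, pairs, lists and the other settings were not tested in this way. Every gene of the set could be named; from each other list up to 4 genes with the largest absolute ratio were named. Synpo, Palld and the non-measured markers were named after their values were seen, to complete counts. The genes, lists and settings were chosen with earlier results of these data known. A further list of genes is not reported here. There were 10 other settings, of scaling, floor, pseudocount and probe set choice.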

Additional observations from a re-analysis of the deposited data

Results flagged for a closer look

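The _x_at probe sets, whose probes can bind other transcripts, entered no gene value and held 5 signals of the set that were at least 2-fold above those of the LPS+CPN array. Pfn2 read 452 with GGOH and 88.2 with LPS+CPN (log2 ratio 2.36), against 0.83 for its gene value. Capg read 427 with GGOH and 93.1 with LPS+CPN (2.20), against -0.12 for its gene value. For Gsn the signal was 157 with GGOH and under the floor with LPS+CPN (at least 1.39 in log2 ratio), against 0.33 for its gene value. Cnn3 read 1498 with GGOH and 725 with LPS+CPN (1.05), and Flnc read 189 with GGOH and 92.3 with LPS+CPN (1.03).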

How the results depend on the processing

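No paired analysis was possible because each group has 1 array. Of 49 measured genes, 12 were at least 2-fold higher (5.50% of all genes), 9 with arrays scaled by medians (4.58%), 10 with quantile normalization (4.38%), 11 with lowess (5.16%) and 10 with a pseudocount (4.99%). The count was 15 of 50 with macrophage markers at a median of 0 (7.59% of all genes), 13 of 52 with the floor at the 25th percentile (10.4%) and 8 of 43 with it at the 75th (1.79%); 7 genes passed in all 10 settings. Calls were lost by Actn1 (0.84 with median scaling), Diaph3, Flnc, Enah and Myh10, the last of which was not measured at the higher floor. The count at least 2-fold lower was 0 after lowess and 0 with macrophage markers at 0. The median of all genes was -0.17 with median scaling and 0.18 with macrophage markers at 0, and the set's median less that of all genes was 0.34 to 0.53 over the settings. Higher genes were 76.8% of all genes past 2-fold, 61.4% with median scaling, 62.5% after quantile normalization, 90.3% with macrophage markers at 0, and 59.5% and 58.9% with the lower and higher floor.

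The muscle-type median of 3.83 was 2.85 with macrophage markers at 0, 2.53 and 1.59 with the lower and higher floor, 3.18 with a pseudocount and 2.99 with the median over probe sets. Fewer or more genes are measured as the floor moves. The count of gene pairs with a gap of at least 1, 6 with Fscn1 and Lcp1 included, was 5 to 8 over the settings. Over the settings the log2 ratio of Tagln ran from 1.59 with the higher floor to 6.24 with the lower, that of Tpm2 from 1.58 to 4.20, of Fscn1 from 3.61 to 6.40, of Cald1 from 4.33 to 5.96 and of Flnc from 0.86 to 3.07. Enah had a log2 ratio of 3.48 when its probe set was chosen after the floor was set, a choice made after seeing the data. Of 484 gene values of the set, 20 moved by over the SD of probe sets within genes, and none of those past 2-fold changed sign.

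Medians near 0 changed sign in some settings. For leukocyte actin regulators these were -0.13 with median scaling, -0.044 with the median over probe sets and -0.053 with _x_at probe sets kept. For the Arp2/3 and WASP family they were 0.069 after quantile normalization, 0.066 after lowess, 0.13 with macrophage markers at 0 and 0.059 with the median over probe sets, which also gave 0.22 for the membrane linkers. Macrophage markers had 0.00157 after quantile normalization, and the group of formins, kinases and SRF -0.12 with the higher floor.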
